A study of Rattus norvegicus with 9 samples.

Results

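Rows R637, R011 and R045 are 3 of the 87 rows listed from a Clontech array that was hybridised with radioactively labelled probes from left ventricles of rats. They were chosen by array name, because their log2 ratios to the untreated control were among the lowest after a second exposure to heat, with or without acute heat stress. Those ratios are therefore given as a description, with no test. The deposited tables give the rows no gene names, and 0 of the 87 row names occurred in the RefSeq gene table used here, so the rows are called by their array names and no role is given to them.

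The heat-stressed groups were rats held at 41 °C for 2 h with 1 h of recovery at 24 °C, either not acclimated, after 2 d at 34 °C, after 1 mo at 34 °C, or after reacclimation. The groups without heat stress were 2 d acclimated and 1 mo acclimated rats (34 °C), deacclimated rats (1 mo at 34 °C, then 1 mo at 24 °C), reacclimated rats (the same, then 2 d at 34 °C) and the untreated control. Each of the 9 groups was 1 sample with 1 value per row in each table, and the labels state 3 pools (6 animals) per group. With no replicates, differences between 2 groups have a size and no p-value, and no neighbouring levels can be said to differ beyond their spread.

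Animals kept in a warm environment adjust to it over days to weeks, which is called heat acclimation. In the rat heart it is known for a lower metabolic demand, larger reserves of heat shock proteins and better tolerance of a shortage of oxygen. The acclimated state fades after return to normal temperature and is known to come back faster on renewed exposure than it arose the first time. Bulk tissue was measured, so fewer cells of a type and less RNA per cell cannot be told apart. As no row has a gene name, markers of heart muscle were not analysed here.

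The values are log2 ratios to the control unless an intensity is named. All treated groups share the 1 control sample, and its error enters every ratio to it. The median log2 ratio over the 87 rows lay between -0.26 (2 d acclimated, heat-stressed) and 0.41 (reacclimated). The control column should be 0 throughout. It departed from 0 by more than 1e-05 in 9 rows, but in the members by no more than 1.52e-06. The number of arrays limits the precision.

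In heat-stressed hearts row R637 had log2 ratios of -0.08 without acclimation, -1.96 in 2 d acclimated, -1.94 in 1 mo acclimated and -2.51 in reacclimated rats. Without heat stress it had -1.03 in the 2 d acclimated, -0.84 in the 1 mo acclimated, -1.02 in the deacclimated and -2.31 in the reacclimated group. It was thus near the control after heat stress alone, about 2-fold below it in the acclimated and deacclimated hearts without heat stress, and lowest in both reacclimated groups. As fold values, R637 was 5.70-fold below the control in reacclimated, heat-stressed hearts, at rank 2 from the lowest of the 87 rows, and 4.95-fold below it in reacclimated hearts, where it was the lowest row.

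With heat stress row R011 had log2 ratios of 0.15 without acclimation, -0.84 in 2 d acclimated, -2.19 in 1 mo acclimated and -2.84 in reacclimated rats. Without heat stress it had -0.85 in the 2 d acclimated, -0.81 in the 1 mo acclimated, -1.02 in the deacclimated and -1.30 in the reacclimated group. Its low values stood in the heat-stressed groups after 1 mo acclimation and after reacclimation, while its 4 values without heat stress differed little. R011 was 7.17-fold below the control in reacclimated, heat-stressed hearts, the lowest of the 87 rows there, and 2.47-fold below it in reacclimated hearts, at rank 5.

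Row R045 with heat stress had log2 ratios of -0.28 without acclimation, -2.14 in 2 d acclimated, -1.06 in 1 mo acclimated and -1.72 in reacclimated rats. The groups without heat stress had -0.69 (2 d acclimated), -0.70 (1 mo acclimated), -0.99 (deacclimated) and -1.93 (reacclimated). The lowest value of R045 was therefore in 2 d acclimated, heat-stressed hearts, where it was 4.40-fold below the control, and not in a reacclimated group. In reacclimated, heat-stressed hearts it was 3.29-fold below the control, at rank 5, and in reacclimated hearts 3.81-fold below it, at rank 2.

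**Figure D1:**
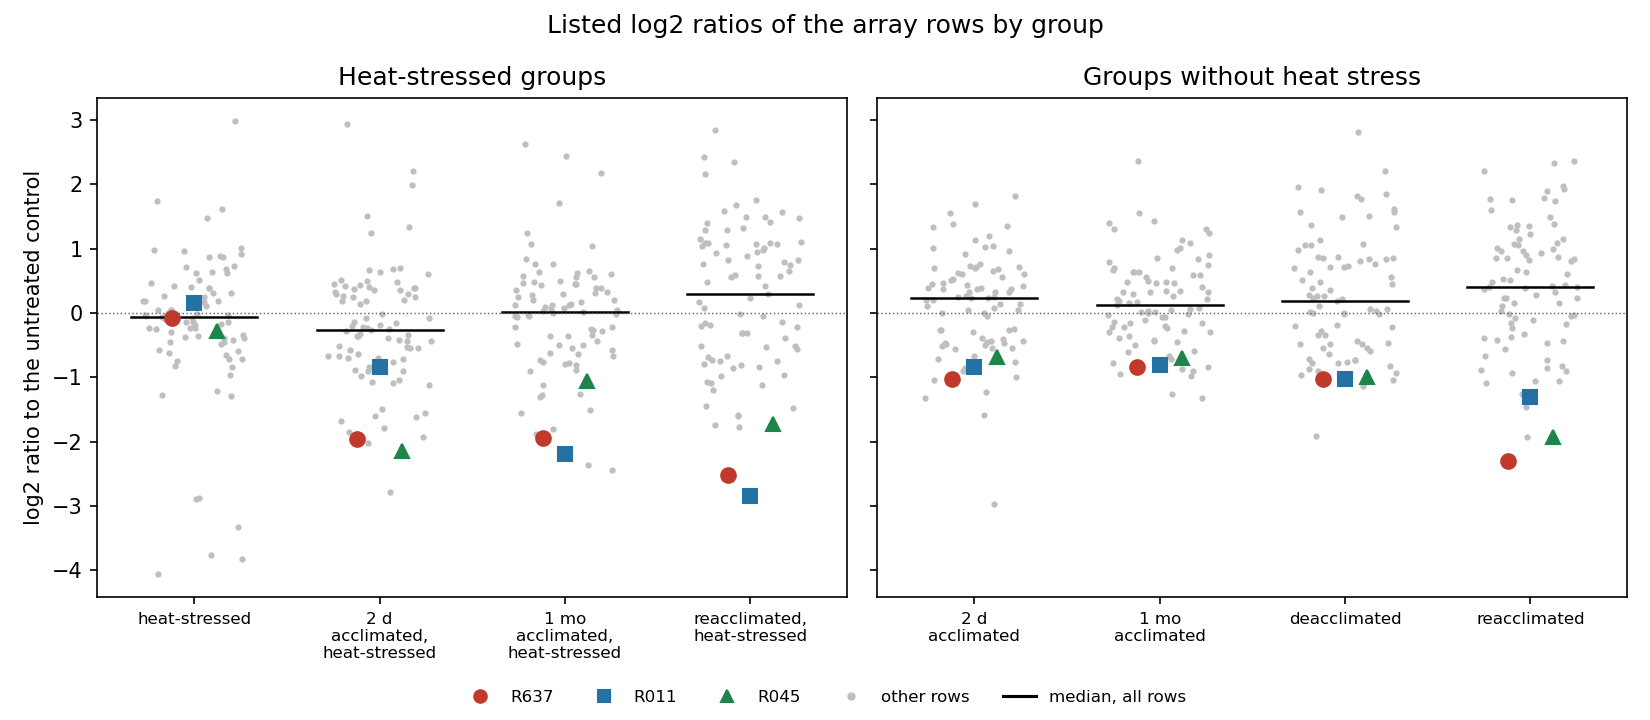
Listed log2 ratio to the untreated control (y axis) in the heat-stressed groups (left) and the groups without heat stress (right), 1 value per row and group; coloured symbols are R637, R011 and R045, grey dots the other rows (jittered sideways) and bars the median of all 87 rows. The 3 rows lie near 0 after heat stress alone (-0.28 to 0.15), between -1.03 and -0.69 after acclimation and deacclimation without heat stress, and between -2.84 and -1.30 in the reacclimated groups.

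At the threshold of at least 2-fold, a log2 ratio of -1 or lower, all 3 rows were lower than the control in reacclimated, heat-stressed hearts, where 14.9% of all rows were, and in reacclimated hearts, where 10.3% were. Both counts follow from the choice of the rows. In the other heat-stressed groups 0 of 3 rows were at least 2-fold lower without acclimation (10.3% of all rows), 2 of 3 in 2 d acclimated (18.4%) and 3 of 3 in 1 mo acclimated rats (14.9%). The row next outside the members at the lower end was 849R in both reacclimated groups. In reacclimated, heat-stressed hearts R045 stood at -1.72 and 849R at -1.59, while A042 (-1.77) and R056 (-1.74) lay between R637 and R045. In reacclimated hearts R011 stood at -1.30 and 849R at -1.25, and R635 (-1.92) and R470 (-1.46) lay between R045 and R011. The gap at the edge of the choice was therefore narrow, at 0.12 log2 units in reacclimated, heat-stressed and 0.05 in reacclimated hearts.

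The stages before reacclimation show when the low values begin in the log2 ratio table. Over the 2 d acclimated, 1 mo acclimated and deacclimated groups, the 3 rows lay between -1.03 and -0.69, and the widest span of a row over these stages was 0.30 (R045). Only R637 was at least 2-fold lower after 2 d acclimation (1 of 3 rows, against 6.9% of all rows), none was after 1 mo acclimation (2.3%), and R637 and R011 were after deacclimation (5.75%). R045 missed the threshold in deacclimated hearts by a small margin, at 1.99-fold. All of these values share the control, so a high control value of a row would lower all its ratios together. That part of the early difference cannot be told apart from the error of the control.

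The steps between stages use no control value. Between the 1 mo and the 2 d acclimated group the differences were 0.19 (R637), 0.03 (R011) and -0.01 (R045), with 0 of 3 rows at least 2-fold lower against 1.15% of all rows. Deacclimated minus 1 mo acclimated gave -0.19, -0.21 and -0.29 in the same order of rows, where the median row was at 0.07 and 8.05% of all rows were at least 2-fold lower. In this table all 3 rows were thus listed slightly lower in deacclimated than in 1 mo acclimated hearts, and none was nearer to the control, while R011 was higher by scaled intensity (1.38).

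In the ratio table the 3 rows differed in the size of the step at the return to the heat. By scaled intensity all 3 were at least 2-fold lower in that step. The step to reacclimated hearts uses the reacclimated values by which the rows were chosen, so its sizes, ranks and counts are a description. Reacclimated minus deacclimated was -1.28 for R637 (2.43-fold lower, rank 3 of 87), -0.94 for R045 (1.92-fold lower, rank 8) and -0.28 for R011 (1.21-fold lower, rank 23). One of the 3 rows was thus at least 2-fold lower, against 8.05% of all rows, and R045 joined it once each group was centred on its median (-1.15), where 9.2% of all rows were. Of the listed log2 ratio in reacclimated hearts, 44.4% was already present in deacclimated hearts for R637, 51.4% for R045 and 78.6% for R011. These shares hold for the ratio table only and include the error of the control. By intensity R011 was at 101% of the control in deacclimated hearts (-0.65 log2 units after scaling), so its early share was not seen there. For R637 the step at reacclimation (-1.28) was larger in size than that between 2 d acclimated and control hearts (-1.03), as it was for R045 (-0.94 and -0.69). For R011 the difference between 2 d acclimated and control hearts (-0.85) was the larger one. Scaled intensities gave R011 the other order, at -6.17 for reacclimated minus deacclimated and -2.77 for 2 d acclimated minus control, with a reacclimated intensity near 0.

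Reacclimated hearts were also set against both first-time acclimations. Against the 2 d acclimated group, which had the same latest exposure of 2 d at 34 °C, R637 was 2.42-fold lower (-1.28, rank 3), R045 was 2.36-fold lower (-1.24, rank 6) and R011 was 1.37-fold lower (-0.46, rank 24). Of all rows 6.9% were at least 2-fold lower there. Against the 1 mo acclimated group the differences were -1.47 for R637, the lowest of the 87 rows, -1.23 for R045 (rank 6) and -0.49 for R011 (rank 21), with 9.2% of all rows at least 2-fold lower. All of these use the reacclimated values by which the rows were chosen.

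**Figure D2:**
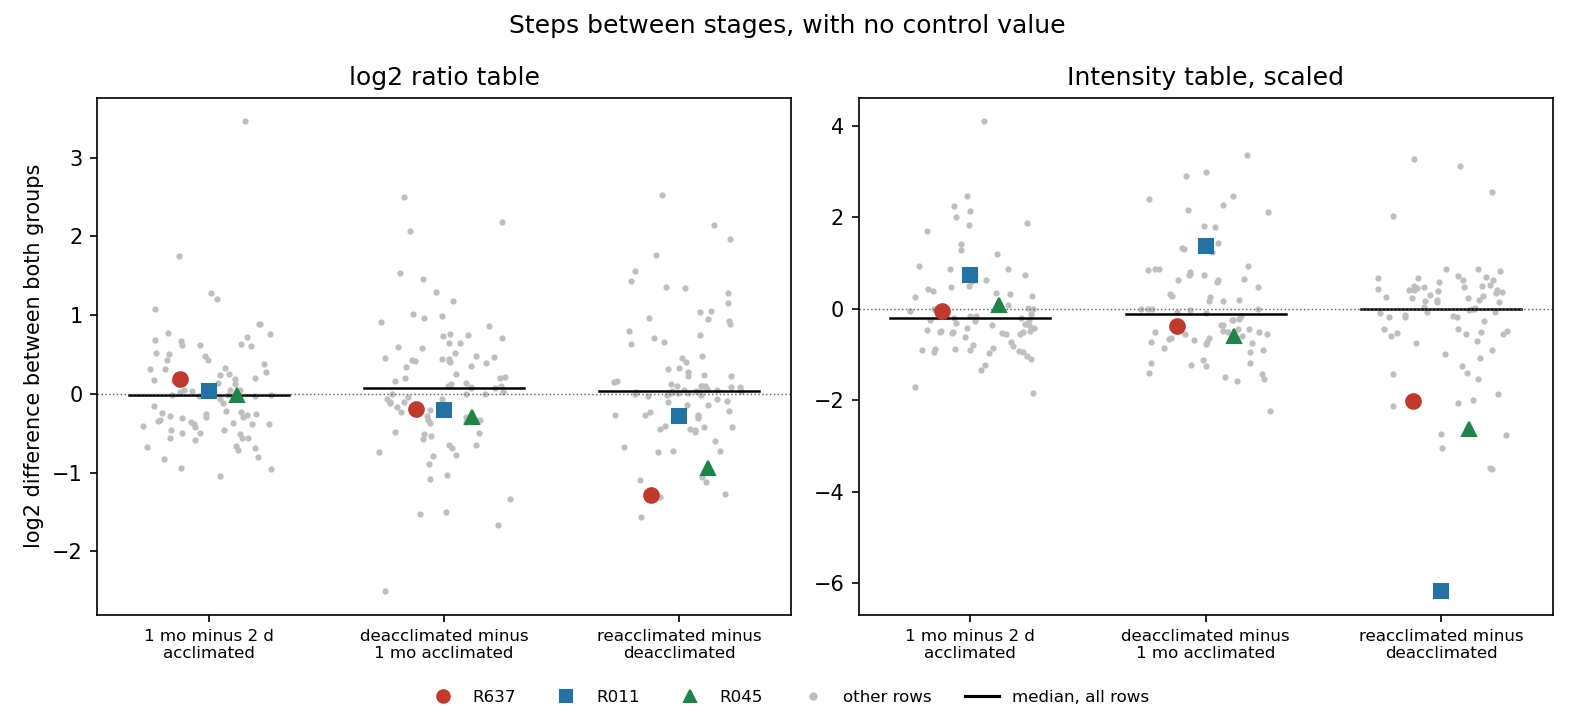
Log2 difference between successive groups without heat stress (y axis) for the log2 ratio table (left) and the scaled intensity table (right); symbols and bars as in the plot of ratios by group, and rows with an intensity of 0 or below are missing on the right. The 3 rows lie between -0.29 and 0.19 in the steps before reacclimation on the left, and at reacclimation R637 and R045 lie at -1.28 and -0.94, while on the right all 3 lie at -2.01 or lower in that step.

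A second deposited table gives intensities on a linear scale. The intensity of R637 in heat-stressed hearts was 6596 without acclimation, 3420.2 in 2 d acclimated, 2629 in 1 mo acclimated and 624.2 in reacclimated rats. Along the stages without heat stress it was 5202 in the untreated control, 5549 after 2 d and 3419 after 1 mo of acclimation, 3564 in deacclimated and 742.2 in reacclimated rats. Both reacclimated groups were far below all others, at 12.0% of the control with and 14.3% without heat stress.

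With heat stress the intensity of R011 was 2679.7 without acclimation, -82.1 in 2 d acclimated, 1136 in 1 mo acclimated and 193.2 in reacclimated rats. Along the other stages it was 3938 in the untreated control, 1063 after 2 d and 1130.3 after 1 mo of acclimation, 3993 in deacclimated and 46.4 in reacclimated rats. By intensity R011 was thus low after both first-time acclimations and after reacclimation, and at the control level in deacclimated hearts, where the ratio table listed it 2.03-fold below the control. Scaling by group medians put it at -0.65 log2 units in deacclimated hearts, between both. In reacclimated hearts the intensity was 1.18% of the control and the listed ratio was 40.5% of it. Whether a value this close to 0 is above background is not stated, so the size of this difference is uncertain.

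R045 had intensities with heat stress of 18372 without acclimation, 3471 in 2 d acclimated, 4169 in 1 mo acclimated and 2785 in reacclimated rats. Without heat stress they were 5837 in the untreated control, 6547 after 2 d and 4399.5 after 1 mo of acclimation, 3939 in deacclimated and 535.8 in reacclimated rats. The reacclimated group was lowest, and heat stress without acclimation was highest at 315% of the control, although the ratio table listed R045 slightly below the control there (-0.28). In 2 d acclimated, heat-stressed hearts, where its listed ratio was lowest, the intensity was 59.5% of the control, and after scaling by group medians the log2 difference from the control was only -0.043.

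**Figure D3:**
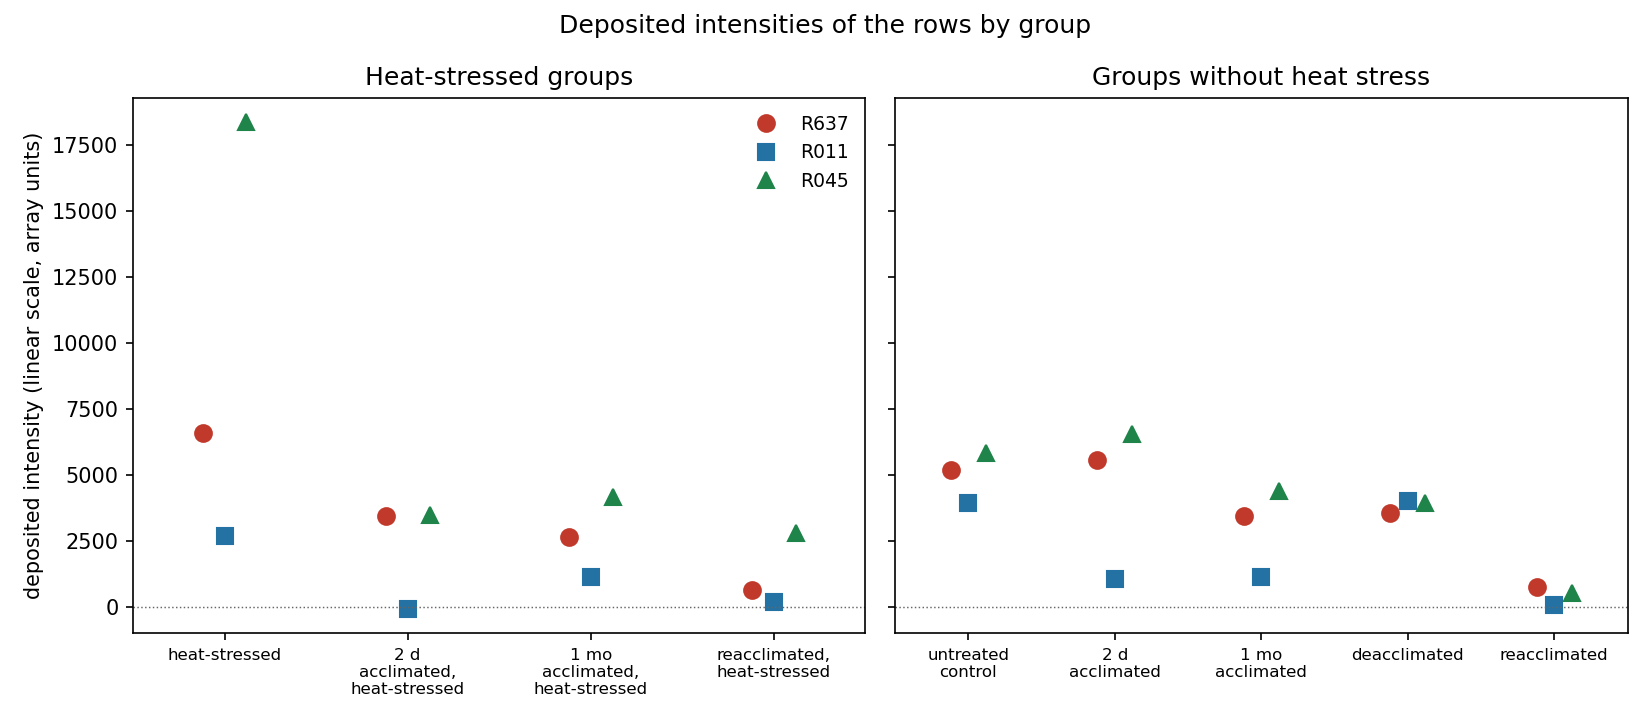
Deposited intensity on a linear scale (y axis) of R637, R011 and R045 in the heat-stressed groups (left) and along the stages without heat stress (right), 1 value per row and group. In reacclimated hearts all 3 rows are between 46.4 and 742.2, each below its own value in every other group without heat stress, and R045 reaches 18372 after heat stress without acclimation.

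Intensities were then taken on the log2 scale and scaled by subtracting each group's median, taken over those 59 rows whose intensity was above 0 in every group. Reacclimated minus control gave -3.23 for R637, -6.83 for R011 and -3.87 for R045 on this scale, each further below 0 than the listed ratio. All 3 rows were at least 2-fold lower, where 32.1% of the 81 rows with an intensity above 0 in both groups were. Reacclimated minus deacclimated gave -2.01, -6.17 and -2.63 in the same order, all 3 past 2-fold against 21.2% of rows. Both counts use the reacclimated sample whose ratios chose the rows, so they are a description. Both tables thus listed R637 (-1.28 in the ratio table) and R045 (-0.94) lower in reacclimated than in deacclimated hearts, and R011 was lower in both too (-0.28 in the ratio table). The intensity of R011 in reacclimated hearts, 46.4, was not shown to be above background, so its differences on this scale have a direction and no firm size.

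The tables also differed before reacclimation. After 2 d acclimation the scaled difference from the control was -0.79 for R637 and -0.72 for R045, but without scaling both intensities were slightly above the control (0.093 and 0.17). For R011 it was -2.77. Over the 8 treated groups the listed and the scaled intensity difference from the control had the same sign in 6 of 8 groups for R637, 6 of 7 for R011 and 7 of 8 for R045, all sharing the 1 control value. Without scaling the sign was the same in 6 of 8, 5 of 7 and 6 of 8 groups. The ratio and the scaled intensity were both at least 2-fold lower in 4, 3 and 2 groups. All of these counts include both reacclimated groups, which had chosen the rows. They were not made for the other rows, so whether the tables go together more often for the members was not tested.

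Acute heat stress was examined by subtracting the unstressed from the stressed group in each state of the rats. For R637 the difference was -0.08 without acclimation, -0.93 in 2 d acclimated, -1.11 in 1 mo acclimated and -0.21 in reacclimated rats. R637 was thus listed below its unstressed group in all 4 states, and by at least 2-fold only after 1 mo acclimation (-0.99 after centring). By scaled intensity R637 was above its unstressed group without acclimation (0.39) and after 2 d acclimation (0.89), and below it in the other 2 states (-0.39 and -0.62). In the ratio table R637 and R011 were at least 2-fold lower on heat stress after 1 mo acclimation, 2 of 3 rows against 19.5% of all rows. On heat stress after 2 d acclimation 33.3% of all rows were at least 2-fold lower.

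For R011 the heat-stress difference was 0.15 without acclimation, 0.0092 in 2 d acclimated, -1.38 in 1 mo acclimated and -1.54 in reacclimated rats. The last was 2.91-fold and rank 4 of 87, where 10.3% of all rows were at least 2-fold lower. By intensity R011 hardly differed after 1 mo acclimation, at 1135.6 with and 1130.3 without heat stress (-0.0070 scaled). Its intensities in reacclimated hearts, 193.2 with and 46.4 without heat stress, were not shown to be above background, and no direction is read from them. For R045 the differences were -0.28, -1.45, -0.36 and 0.21 over the same states. Only 2 d acclimated hearts reached 2-fold (-0.96 after centring, and 0.68 by scaled intensity), and the intensity of R045 in reacclimated hearts was higher with heat stress (2785) than without it (535.8).

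An average effect of heat stress was tested with limma over all 87 rows on the 3 states other than reacclimation, since the reacclimated pair had chosen the rows. The not acclimated pair still shares the control with that choice. R637 averaged -0.71 ± 0.37 (SE, lower in 3 of 3 states, limma adjusted p = 0.390), R045 averaged -0.70 ± 0.38 (lower in 3 of 3, limma adjusted p = 0.399) and R011 averaged -0.41 ± 0.42 (lower in 1 of 3, limma adjusted p = 0.601). None of the 3 passed at 0.05. The median row averaged -0.31 and was itself below 0 in each of these 3 states. Of all rows 0 passed by limma, with 8 lower and 3 higher at an unadjusted p under 0.05. Without the not acclimated state 14 rows passed (8 lower and 6 higher) and without the 1 mo acclimated state 7 did. None of the 3 rows was among them, R637 being nearest with a limma adjusted p of 0.110 in the first case. Without the 1 mo acclimated state the estimate of R011 was 0.079. Both of these fits used 2 states, with 1 residual degree of freedom per row. Without the 1 mo acclimated state the SE was 0.648 for all 3 members, a value shared over rows that does not measure the spread of each row.

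**Figure D4:**
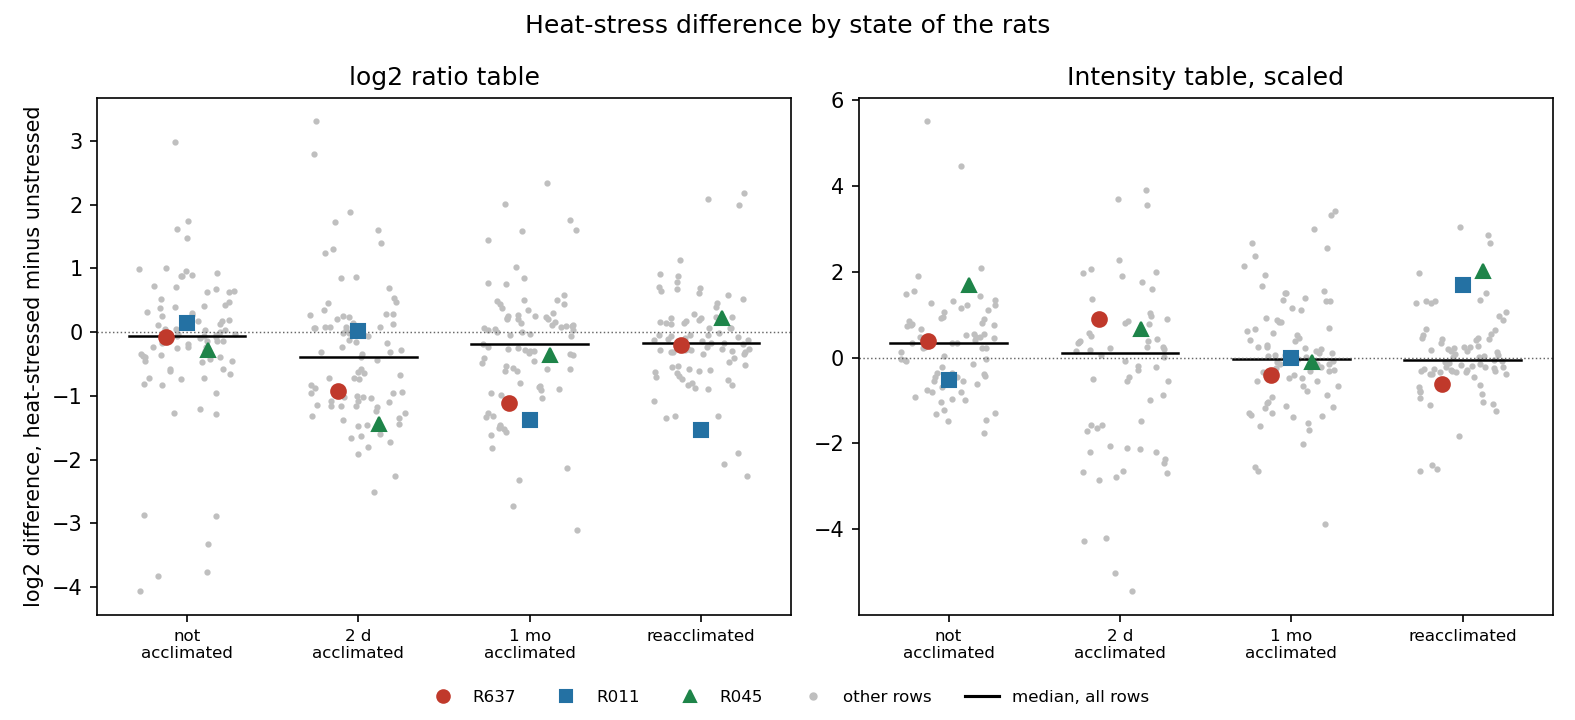
Log2 difference between the heat-stressed and the unstressed group (y axis) in each state of the rats for the log2 ratio table (left) and the scaled intensity table (right); symbols and bars as in the plot of ratios by group. On the left R637 and the median of all rows lie below 0 in all 4 states. R011 lies below 0 there only after 1 mo acclimation and reacclimation, and R045 in all but the reacclimated state. On the right R045 lies above 0 in reacclimated hearts, as does R011 from intensities near 0.

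Reacclimated, heat-stressed hearts were last compared with the other heat-stressed groups. Their values helped to choose the rows, so the differences and counts that follow are a description. Against heat stress without acclimation the differences were -2.43 for R637, -2.99 for R011 and -1.44 for R045, all 3 at least 2-fold lower where 16.1% of all rows were. Against the 2 d acclimated, heat-stressed group they were -0.55, -2.01 and 0.42 in the same order, with 1 of 3 past 2-fold against 8.05% of all rows, and R011 had an intensity below 0 in that group. Centring put R637 past 2-fold there (-1.11) and turned R045 to -0.14. Scaled intensity gave -3.95 for R637 and -1.81 for R045, but R045 was at -0.32 without scaling. Against the 1 mo acclimated, heat-stressed group they were -0.57, -0.65 and -0.65, with 0 of 3 past 2-fold against 4.6% of all rows. In the ratio table all 3 rows thus lay within 2-fold of their level in 1 mo acclimated, heat-stressed hearts. By scaled intensity R637 (-2.61), R011 (-3.09) and R045 (-1.12) were all more than 2-fold below the 1 mo acclimated, heat-stressed group, where 25.3% of rows were. The value of R011 rests on an intensity of 193.2 that was not shown to be above background, so it has no firm size. Without scaling R045 was within 2-fold of the 1 mo acclimated, heat-stressed group (-0.58).

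The profiles of the 3 rows were compared by Pearson's r over the 8 treated groups, in which an error of the control common to all groups cancels. The points share their arrays, and r is given as a description. Row R637 was most like R045 (r = 0.880), then R585 (0.856) and R011 (0.817). Row R011 was most like R637, then R056 (0.793) and 849R (0.786). Row R045 was most like R635 (0.901), then A038 (0.886) and R637. R637 therefore resembled both others, while R011 and R045 had r = 0.490 with each other.

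Since both reacclimated groups had chosen the rows, r was also taken over the other 6 treated groups. It was then 0.828 between R637 and R045, 0.791 between R637 and R011 and 0.343 between R011 and R045. Of the other named rows, R585 had 0.780 with R637, while R056 had 0.539 and 849R 0.693 with R011. With R045, R635 had 0.974 and A038 0.987. Row R585, in the list of R637, was less far below the control after reacclimation (-0.43, and -0.75 with heat stress), and A038, in the list of R045, was at the control level in reacclimated hearts (0.03). By scaled intensity r was 0.847 between R637 and R045 and 0.888 between R637 and R585 over 8 groups. It was lower between R045 and R635 (0.743, rank 5 of 58 rows) and between R045 and A038 (0.567, rank 14). Over the 7 groups in which R011 was above 0, it was 0.873 between R637 and R011 and 0.846 between R011 and R045. These intensity values of r include both reacclimated groups, which had chosen the rows. The intensities of R011 there, 46.4 and 193.2, were not shown to be above background, so no likeness of R011 is read from them.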

How the data were processed

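Total RNA from left ventricles was extracted with Tri-Reagent, pooled and hybridised with a radioactive label, per the labels' protocols. The deposited log2 values are ratios of each treated group to the control, computed from geometric means and normalized by the authors, per the labels. The deposited intensity values are on a linear scale. The sources used here do not give how either was processed, how rows were chosen, or whether an intensity column is 1 pool or a summary. Results rest on the log2 table, with the control taken as 0.

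Differences were computed per row for 19 comparisons and rows at least 2-fold lower were counted. Heat stress was tested with limma (lmFit, eBayes) on stressed minus unstressed values over 3 states, with Benjamini-Hochberg adjustment over 87 rows at 0.05. Its spread is between states, and eBayes moves the variance of each row towards a value shared over rows. The code was run on simulated data whose changed rows were lowered equally in every state, by more than the estimates of the members. That run gives no power for the members. For each member the 3 rows with the highest Pearson's r were named, with the rows next to the members at the lower end. Members and lists were chosen with earlier results of these data known. Alternatives were centring, the listed control, both forms of intensity, a 1.5-fold threshold, omission of the dimmest 25% of rows and omission of states. The tools were limma 3.58.1 in R 4.3.3, and pandas 2.3.3, numpy 2.4.6 and matplotlib 3.10.9 in Python 3.11.15.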

Additional observations from a re-analysis of the deposited data

Results flagged for a closer look

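The heat-stress difference of R011 ran in opposite directions between states, at -1.54 in reacclimated and 0.15 in not acclimated hearts. That of R045 also did, at -1.45 in 2 d acclimated and 0.21 in reacclimated hearts. By scaled intensity the differences of R011 were 1.69 and -0.51 in the same states, the first from intensities not shown to be above background, and those of R045 were 0.68 and 2.01, with no opposite direction. Each rests on 1 sample per group, and the difference between states was not tested.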

How the results depend on the processing

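Each group is 1 sample, and no value between 2 groups has an error. Of the 57 differences of the 3 rows, subtracting the control as listed left all 57 on their side of 2-fold, and centring each group left 51, with 2 changes of sign. Of the 54 differences that intensities could give, 30 stayed on their side of 2-fold by scaled and 31 by unscaled intensity. The sign changed in 11 by scaled and 12 by unscaled intensity, of which 3 and 4 had been at least 2-fold in the ratio table. R011 is among the dimmest 25% of rows and has no value without them. Replicate numbers pair no samples, as each group has 1. The cause of the changes below was not tested.

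After centring, R637 was at -0.99 for 1 mo acclimated, heat-stressed minus unstressed and at -1.11 for reacclimated minus 2 d acclimated, both heat-stressed. R011 was at -1.07 for 2 d acclimated minus control. R045 was at -1.19 for deacclimated minus control, -1.15 for reacclimated minus deacclimated and -0.96 for 2 d acclimated, heat-stressed minus unstressed.

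By intensity, the scaled value is given first and the unscaled one second. R637 minus control was -0.79 and 0.093 after 2 d acclimation, 0.10 and -0.60 with heat stress on top, and unscaled -0.98 after 1 mo acclimation with heat stress and -0.55 after deacclimation. Its heat-stress difference after 1 mo acclimation was -0.39 and -0.38. Reacclimated, heat-stressed minus the 2 d acclimated, heat-stressed group was -3.95 and -2.45 for R637, and minus the 1 mo one -2.61 and -2.07.

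R011 minus control was -2.77 and -1.89 in the 2 d acclimated, -2.03 and -1.80 in the 1 mo acclimated group, and -0.65 and 0.020 after deacclimation. Deacclimated minus 1 mo acclimated was 1.38 and 1.82 for R011. Its reacclimated level was -6.17 and -6.43 against the deacclimated, -4.79 and -4.61 against the 1 mo and -4.05 and -4.52 against the 2 d acclimated group. The heat-stress difference of R011 was -0.0070 and 0.0067 in 1 mo acclimated and 1.69 and 2.06 in reacclimated rats, and reacclimated minus 1 mo acclimated, both heat-stressed, was -3.09 and -2.56. The intensities of R011 in both reacclimated groups were not shown to be above background.

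R045 minus control was 1.70 and 1.65 after heat stress, -0.043 and -0.75 after 2 d acclimation with heat stress, -0.73 and -0.49 after 1 mo acclimation with heat stress, and -1.24 scaled after deacclimation. Reacclimated minus deacclimated was -2.63 and -2.88 for R045. Its heat-stress difference was 0.68 and -0.92 after 2 d acclimation and 2.01 and 2.38 after reacclimation. Reacclimated, heat-stressed minus the 2 d acclimated, heat-stressed group was -1.81 and -0.32 for R045, and minus the 1 mo one -1.12 and -0.58.

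In reacclimated hearts 9 rows were at least 2-fold below the control, against 16 after centring, 26 by scaled intensity and 16 at 1.5-fold. In reacclimated, heat-stressed hearts the counts were 13, against 22, 34 and 24, and 6 without the dimmest 25% of rows. Heat stress over the states called 0 rows, against 2 with all 4 states, 14 without the not acclimated state, 7 without the 1 mo acclimated state, 1 by scaled intensity and 1 without the dimmest rows. The fits that left out a state used 2 states each. The estimate turned to 0.30 for R637 (limma adjusted p = 0.783) and 0.76 for R045 (limma adjusted p = 0.650) by scaled intensity, and to 0.079 for R011 without the 1 mo acclimated state (limma adjusted p = 0.989). Over the alternatives the adjusted p was 0.110 to 0.933 for R637, 0.327 to 0.989 for R011 and 0.178 to 0.753 for R045.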
